A study of Homo sapiens with 9 samples.

Results

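The cytosolic ribosomal protein genes, whose symbols begin with RPL (large subunit) or RPS (small subunit) followed by a number, with RPSA and RPLP0, RPLP1 and RPLP2, were followed in MDA-MB-231, a long-established human cell line derived from triple negative breast cancer. Pseudogenes and the S6 kinases were left out. The naming rule found 91 genes among the 60715 in the count table. Of these, 77 encode the core proteins (46 large, 31 small), 10 are paralogs that resemble a core protein (such as RPL22L1, beside RPL22), 3 are read-through loci and 1, RPS19BP1, binds a ribosomal protein and is not one. FAU and RACK1, ribosomal genes that carry other names, are given apart.

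Poly(A) RNA had been sequenced from cells that carried KCNJ2(Kir2.1)-Y242F-EGFP, an inward rectifier potassium channel with a substitution and joined to EGFP (3 libraries), from cells that carried Kv1.5-T2A-his-EGFP, a voltage-gated potassium channel with EGFP (replicates 2 and 3), and from control cells that carried RFP, a red fluorescent protein (3 libraries). Lentivirus had carried every construct into the cells, the control included, and transduced cells had been isolated by FACS, and the labels describe the libraries of a line as separate biological replicates. Replicate 1 of Kv1.5 was not analysed here. The sources used here do not say whether each replicate was transduced anew, so a p-value speaks of the spread among the replicates and no more. Libraries held between 30970235 and 42753422 counts. KCNJ2 was at 843, 1384 and 1189 CPM (counts brought to a common library size with edgeR's TMM factors) in Kir2.1 libraries and at no more than 0.105 CPM in any other library. For KCNA5, the gene of Kv1.5, 0 counts were found in both libraries that carry the Kv1.5 label, which are named by that label throughout. VIM, CD44, AXL, MSN and CAV1, which mark MDA-MB-231, were all above 100 CPM in every library. Against RFP libraries, 1 of these 5 was called higher in Kir2.1 libraries by edgeR, and 1 higher and 2 lower in libraries labelled Kv1.5. Of all genes tested, 20.5% and 33.7% were called in these comparisons. Against Kir2.1 libraries, 2 were lower in libraries labelled Kv1.5, where 16.8% of all genes tested were called. KRT5, KRT14, CDH1, ESR1 and the leukocyte marker PTPRC were at 0.259 CPM or less. EPCAM, an epithelial marker, was at 10.7, 7.78 and 10.9 CPM in Kir2.1 libraries, at 15.0 and 27.2 CPM in libraries labelled Kv1.5 and at 12.7, 17.8 and 16.5 CPM in RFP libraries, and was called higher in libraries labelled Kv1.5 than in Kir2.1 libraries (1.11, adjusted p = 0.0215 by edgeR). CD14, a monocyte marker, was at 3.01 to 4.08 CPM in Kir2.1 libraries, at 3.88 and 3.92 CPM in libraries labelled Kv1.5 and at 0.549 to 0.921 CPM in RFP libraries, while CD3E had 0 counts in all 8. The part of EPCAM, CD14 and the MDA-MB-231 markers in the results was not tested.

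Each ribosome is built from ribosomal RNA and 1 copy of most ribosomal proteins, so the genes are usually expressed together and at high levels. Their messenger RNAs typically begin with a C followed by a run of pyrimidines, the terminal oligopyrimidine (TOP) tract, through which the mTORC1 kinase pathway and the protein LARP1 control their translation. The proteins are assembled with ribosomal RNA in the nucleolus, and several of them also bind MDM2, the ubiquitin ligase of p53, when assembly is disturbed. Mutations in RPS19, RPS26, RPL5, RPL11 and other members cause Diamond-Blackfan anaemia, a failure of red cell production.

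The annotated starts of the genes carry that tract in a larger share than starts in general. RefSeq promoter sequences (GRCh38.p14) held 77 starts for 62 of the core genes. A C at the start followed by at least 4 more C or T bases was present at 46 of these 77 starts (59.7%), against 6 of 90 starts of mitochondrial ribosomal protein genes (6.67%) and 4.07% of all 35116 starts. The letters CCGGAAG, searched on both strands within 300 bases, were present at 33.8% of core starts, 37.8% of mitochondrial ribosomal protein starts and 10.3% of all starts. A TATAAA lay from 40 to 16 bases before 2 of the 77 core starts, or 2.60%, against 2.30% of all starts. The windows below are of members whose levels differed between groups in the results that follow, each running from 10 bases before the annotated start to 20 bases from it on the gene's own strand, with the longest run of at least 5 C or T bases in capitals:
RPL31: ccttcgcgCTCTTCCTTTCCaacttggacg
RPL10A: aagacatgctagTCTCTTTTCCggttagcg
RPL22L1: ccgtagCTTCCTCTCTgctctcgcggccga
RPL7L1: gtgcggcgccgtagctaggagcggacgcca
RPS27: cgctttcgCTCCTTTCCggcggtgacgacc
RPL41: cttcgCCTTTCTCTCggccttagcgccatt
RPS26: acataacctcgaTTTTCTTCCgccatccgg
RPL12: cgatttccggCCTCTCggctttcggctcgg
RPL4: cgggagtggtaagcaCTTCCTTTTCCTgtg
RPS15: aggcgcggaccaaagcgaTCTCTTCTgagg
RPS6: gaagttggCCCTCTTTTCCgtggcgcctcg
These windows lie at chr2:101002279-101002308 (RPL31, plus strand), chr6:35468391-35468420 (RPL10A, plus), chr3:170870176-170870205 (RPL22L1, minus), chr6:42879606-42879635 (RPL7L1, plus), chr1:153990752-153990781 (RPS27, plus), chr12:56116623-56116652 (RPL41, plus), chr12:56041908-56041937 (RPS26, plus), chr9:127451387-127451416 (RPL12, minus), chr15:66504836-66504865 (RPL4, minus), chr19:1438386-1438415 (RPS15, plus) and chr9:19380217-19380246 (RPS6, minus). They cover promoter bases and the first bases of the 5′ untranslated exon. In the windows shown, runs of 6 to 12 pyrimidines stood near the start of genes called higher and of genes called lower in the comparisons below. RPL7L1 held no such run. Among called genes whose windows are not shown, RPL36A held a run of 13, and RPL15 held a run of 10 at 1 of its 3 annotated starts and none at the other 2. A marked run is a looser feature than a TOP tract. The runs of RPL10A and RPS26 opened 2 bases after the start, that of RPL4 5 and that of RPS15 8. How often any start holds such a run was not counted. A C within 5 bases of the start, followed by at least 4 more C or T bases, was present at 74.0% of core starts and 21.1% of all starts. That C need not be the first base of its run.

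All 77 core genes had counts in every library. Per kilobase of coding sequence, the highest mean levels over the 8 libraries were those of RPS24 (3138 CPM per kb), RPL30 (2943), RPL37 (2914), RPL37A (2752) and RPS21 (2584). The lowest levels were those of RPL7 (4.04 CPM per kb), RPS10 (7.79), RPL21 (14.6), RPL17 (20.9) and RPL36A (21.5). These low values belong to proteins that every ribosome holds, and they followed how much of a gene's coding sequence is found nowhere else. The reads were 50 bases long, so 50-base stretches of each core gene's coding sequence were examined. The share that occurs in no transcript of another GENCODE 29 gene was counted, with pseudogenes included and read-through loci left out. Read-through loci overlap RPL17, RPL36A and RPS10 on the same strand, and the part of that overlap in their low levels was not tested. The 16 core genes with under 10% unique stretches had a median level of 37.5 CPM per kb. The median was 614.6 CPM per kb for the 24 genes with 10 to 50% and 1664 CPM per kb for the 37 genes with at least 50%. The rank correlation between this share and the level was 0.825 across the 77 genes, which are not independent replicates and share libraries and depth. In 9 genes no stretch was unique: RPL21, RPL36A, RPL39, RPL41, RPS10, RPS26, RPS27, RPS28 and RPS3A. The sources used here do not say how reads that match several places were counted, so for the 16 genes the level is uncertain as a measure of the transcript.

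**Figure D1:**
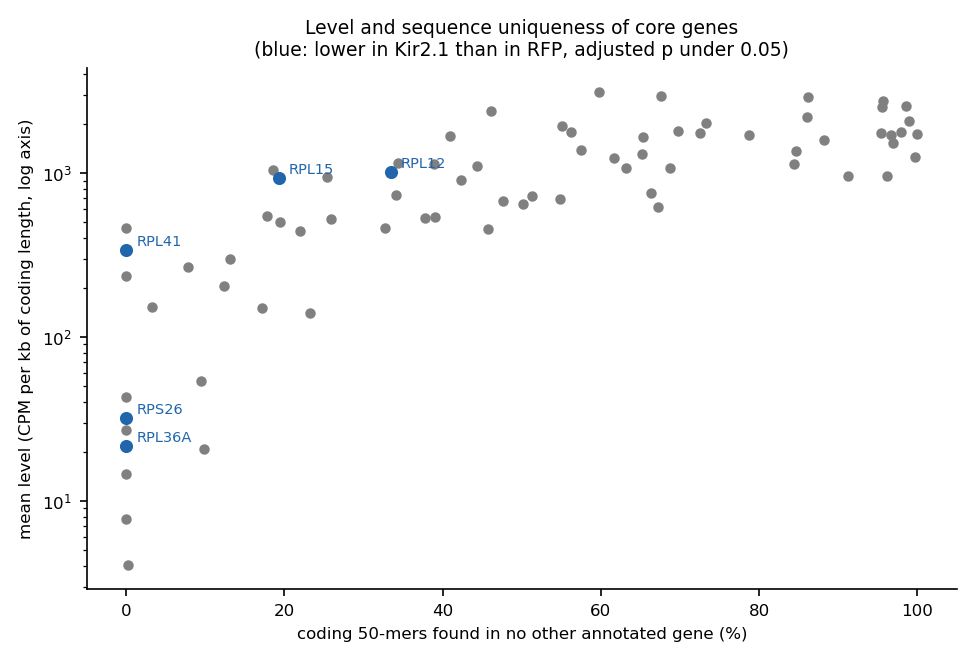
Each point is a core ribosomal protein gene. The horizontal axis gives the share of its coding 50-base stretches found in no other annotated gene (%), read-through loci aside. The vertical axis gives its mean level over 8 libraries (CPM per kb of coding sequence, log axis). The 16 genes under 10% have a median of 37.5 CPM per kb, and RPL41, RPS26 and RPL36A, among the named genes that were lower in Kir2.1 than in RFP libraries (blue), lie at its left edge.

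Pseudogenes of these genes were counted too. The table lists 1606 ribosomal protein pseudogenes, which together took 199 to 279 CPM in Kir2.1 libraries, 228 and 398 CPM in libraries labelled Kv1.5 and 281 to 357 CPM in RFP libraries. That equals 0.638% to 0.935% of the counts in ribosomal protein genes, with the highest share in RFP replicate 3. RPL9 itself was at 28.9, 24.2 and 22.1 CPM in Kir2.1 libraries, at 31.1 and 50.2 CPM in libraries labelled Kv1.5, and at 36.8, 36.7 and 19.7 CPM in RFP libraries. Its processed copy RPL9P9 was listed above it in every library, at 63.6, 46.1 and 63.8 CPM in Kir2.1 libraries, at 54.7 and 182.7 CPM in libraries labelled Kv1.5, and at 49.8, 72.2 and 75.2 CPM in RFP libraries. Adding all pseudogene counts to the members left each group's mean share of counts within its SD.

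The whole gene family moved by library within groups. Ribosomal protein genes took 4.30%, 2.96% and 3.14% of all counts in Kir2.1 replicates 1, 2 and 3, 3.28% and 4.67% in the libraries labelled Kv1.5 replicates 2 and 3, and 4.41%, 4.57% and 3.82% in RFP replicates 1, 2 and 3. The means were 3.46% ± 0.725 in Kir2.1 libraries (SD, n = 3), 3.98% ± 0.979 in libraries labelled Kv1.5 (SD, n = 2) and 4.27% ± 0.398 in RFP libraries (SD, n = 3). The groups overlapped, and the gap between replicates 3 and 2 labelled Kv1.5 was larger than the gap between the means of any groups. In bulk RNA a share can fall because other transcripts gained, and that cannot be told apart from fewer ribosomal protein transcripts per cell.

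The spread within groups was shared by nearly all core genes. In the library labelled Kv1.5 replicate 3, 74 of the 77 core genes were higher than in replicate 2, by a median of 1.44-fold, while 47.5% of all genes tested were. In Kir2.1 replicate 1, 75 of 77 were higher than in replicate 2 (median 1.47-fold) and 73 were higher than in replicate 3 (median 1.38-fold). In RFP replicate 1, 66 of 77 were higher than in replicate 3 (median 1.30-fold). Relative to each gene's own mean over the 8 libraries, the core genes had medians of 0.12, -0.40 and -0.32 (log2) in Kir2.1 replicates 1 to 3, -0.24 and 0.44 in the libraries labelled Kv1.5, and 0.27, 0.30 and -0.08 in RFP replicates 1 to 3. In Kir2.1 replicate 2, none of the 77 core genes was above its own mean.

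Coding length also separated the libraries, with and against the core genes. Other genes of up to 500 coding bases had medians relative to their own means of 0.19, -0.11 and -0.06 (log2) in Kir2.1 replicates 1 to 3 and 0.06 and 0.16 in the libraries labelled Kv1.5, and of -0.11, -0.04 and -0.08 in RFP replicates 1 to 3. Short genes thus had the sign of the core genes in all 3 Kir2.1 libraries, in the library labelled Kv1.5 replicate 3 and in RFP replicate 3, and the opposite sign in the library labelled Kv1.5 replicate 2 and in RFP replicates 1 and 2. Genes of over 4000 coding bases had the opposite sign to short genes in each of the 8 libraries, for example -0.29 in Kir2.1 replicate 1 and 0.24 in Kir2.1 replicate 2. The 77 tested mitochondrial ribosomal protein genes had medians of 0.23, -0.17 and -0.14 in Kir2.1 libraries, -0.13 and 0.10 in libraries labelled Kv1.5, and 0.16, 0.13 and -0.12 in RFP libraries, the same sign as the core genes in all 8. With a trend on coding length taken off, the median fold change of the ribosomal protein genes between Kir2.1 and RFP libraries was -0.37 on the log2 scale, against -0.31 without this step.

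**Figure D2:**
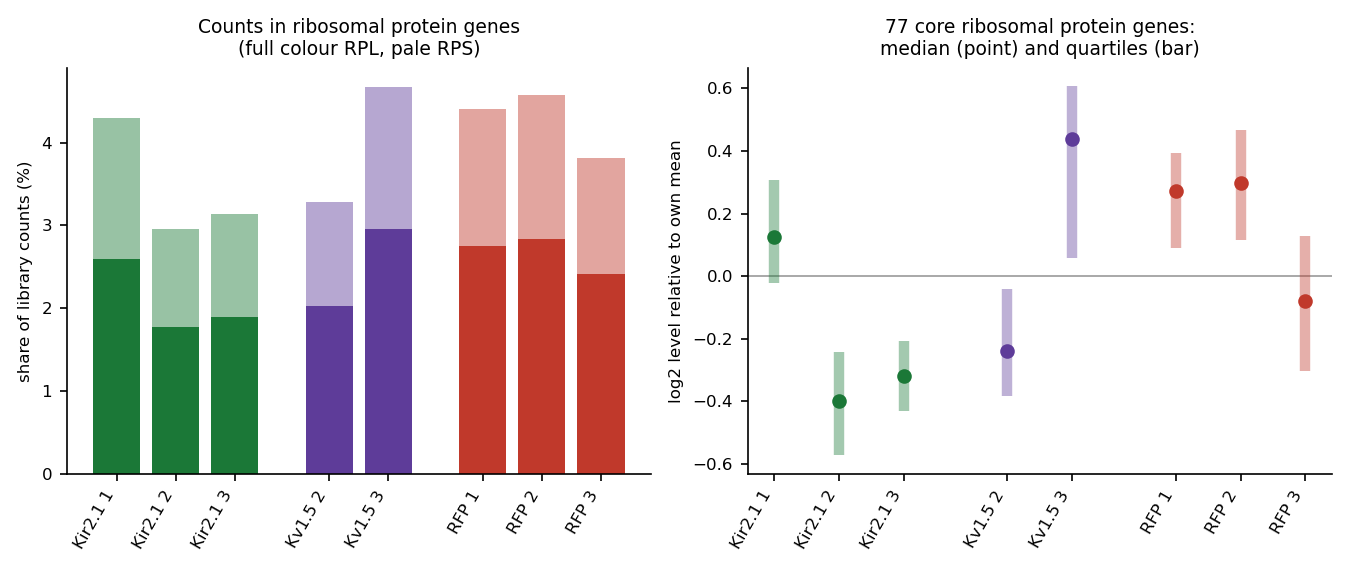
Left, the share of each library's counts (%) in large subunit (RPL, full colour) and small subunit (RPS, pale) genes, and right, the median (point) and quartiles (bar) of the 77 core genes' log2 levels relative to each gene's own mean over 8 libraries. Libraries of 1 group lie far apart, such as 3.28% and 4.67% in the libraries labelled Kv1.5 replicates 2 and 3.

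Expression was compared with edgeR's quasi-likelihood test over all 16687 genes that passed a filter on low counts, with Benjamini-Hochberg adjustment over all of them. Of the 91 members, 84 passed. The other 7 were RPL3L, RPL10L, 3 read-through loci and the Y-linked paralogs, and RPL3L and RPL10L never exceeded 1 count in a library. A gene is called at an adjusted p under 0.05, and fold changes are on the log2 scale. Together 14 of the 84 members were called in at least 1 comparison, and 70 in none. Of all genes tested, 33.7% were called in the comparison of libraries labelled Kv1.5 with RFP libraries. Their share in at least 1 comparison is thus no lower than that.

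**Figure D3:**
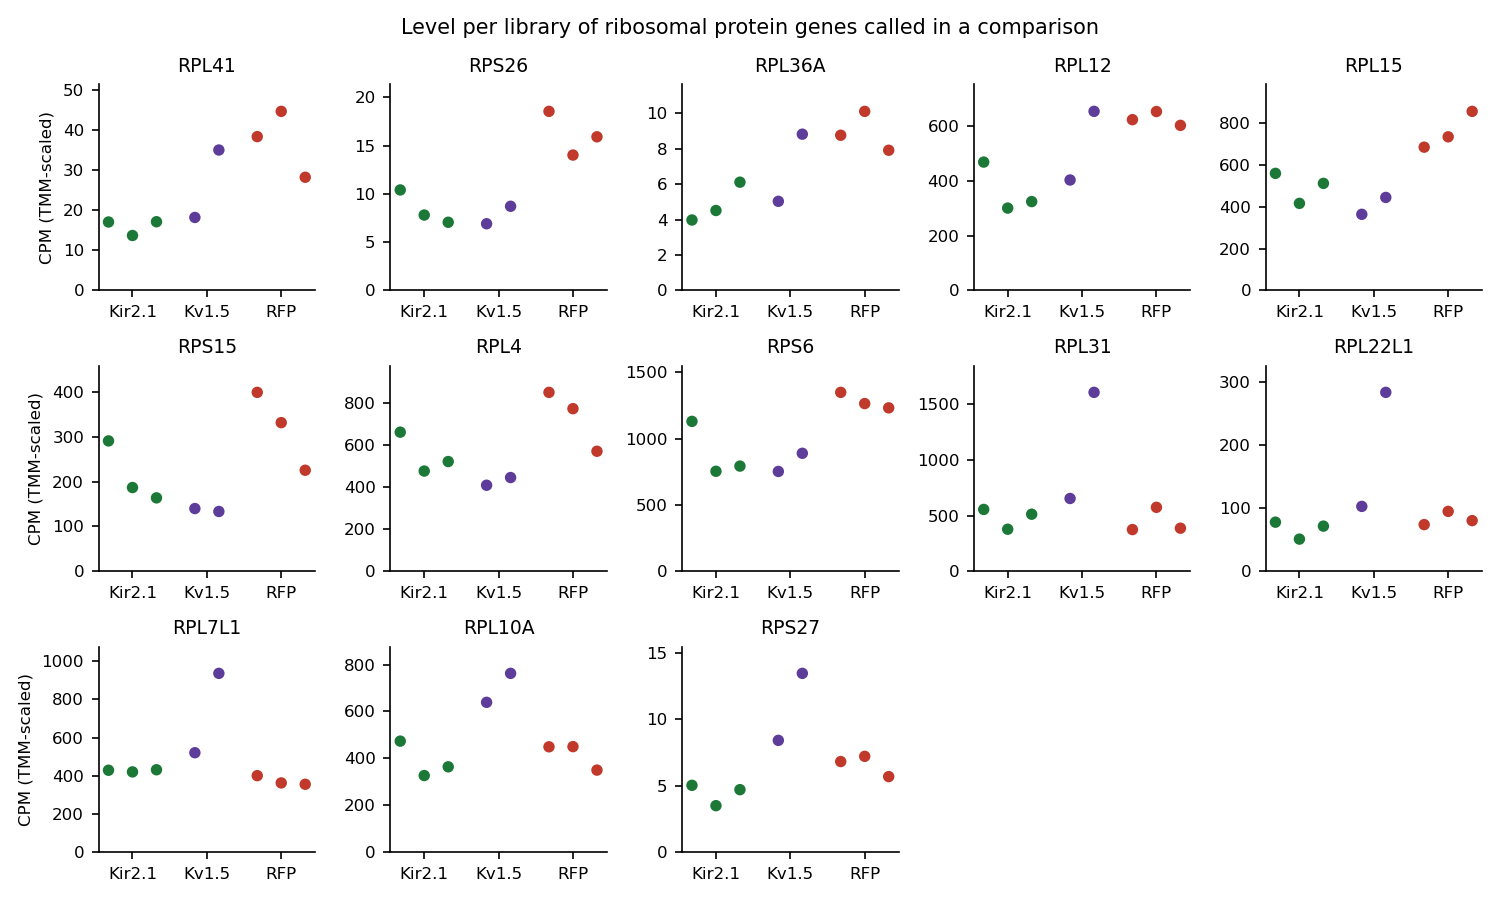
The level of each described ribosomal protein gene that was called in any comparison is plotted in CPM on scaled libraries, 1 point per library, for the Kir2.1 (green), labelled Kv1.5 (purple) and RFP (red) groups. The library labelled Kv1.5 replicate 3 is the highest point for RPL31, RPL22L1, RPL7L1, RPL10A and RPS27. RPS26 and RPL15 are lower in every Kir2.1 library and every library labelled Kv1.5 than in every RFP library.

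Kir2.1 cells were compared with RFP cells. The Kir2.1 and Kv1.5 constructs both hold EGFP, while the control holds RFP. In comparisons with RFP libraries, channel and fluorescent protein thus cannot be told apart. In all, 6 members fell and 0 rose, and RPL41, RPS26, RPL36A, RPL12 and RPL15 among the 6 are described here. That is 7.14% of the 84 members, against 20.5% of all genes tested that were called in either direction, and 8.26% of all genes tested that were called lower. The member share of falls was thus near the background. The fitted changes had quartiles of -0.54 and -0.12 and a median of -0.31, against -0.01 for all genes tested, and 72 of 84 were below 0 (85.7%, against 50.4% of all genes tested). At an unadjusted p under 0.05 there were 25 members (29.8%), against 34.6% of all genes tested. Groups did not overlap for 22 members (26.2%), against 44.7% of all genes tested. Of the 22, 21 were lower in Kir2.1 libraries (25% of members), where 20.8% of all genes tested were lower without overlap, and 1 was higher (1.19%), where 23.9% were. By subunit, 4 of 46 large subunit genes fell, with a median change of -0.34, and 2 of 31 small subunit genes, with a median of -0.32. The count of falls moved with single libraries. It was 12 without Kir2.1 replicate 1, 2 without Kir2.1 replicate 2, 3 without Kir2.1 replicate 3 and 3 without RFP replicate 2. It was also higher with either of the libraries labelled Kv1.5 left out. Those libraries enter this comparison through the filter on low counts, the scaling and the shared estimate of spread. These counts are not set beside the share of all genes called in the same fits, so they do not single out the members. The median was -0.54 without Kir2.1 replicate 1 and -0.20 without Kir2.1 replicate 2.

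RPL41, which encodes the shortest ribosomal protein, was at 17.1, 13.7 and 17.1 CPM in Kir2.1 libraries, against 38.4, 44.7 and 28.2 CPM in RFP libraries. It fell by 1.22 (SE 0.26, adjusted p = 0.0063), and the groups did not overlap. RPS26, at the channel where mRNA leaves the small subunit, was at 10.4, 7.81 and 7.06 CPM in Kir2.1 libraries, against 18.6, 14.02 and 15.9 CPM in RFP libraries. It fell by 0.94 (SE 0.23, adjusted p = 0.013). RPL36A, a large subunit protein, was at 3.98, 4.51 and 6.11 CPM in Kir2.1 libraries, against 8.76, 10.1 and 7.91 CPM in RFP libraries, and fell by 0.87 (SE 0.28, adjusted p = 0.042). The call of RPL36A was lost with any RFP library or Kir2.1 replicate 1 or 2 left out, and that of RPS26 with Kir2.1 replicate 2 or 3 left out. RPL41, RPS26 and RPL36A were all counted at under 50 CPM, and none of their coding stretches is unique, so their values are uncertain.

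RPL12, a protein at the base of the stalk that recruits translation factors, was at 469.6, 301.2 and 325.0 CPM in Kir2.1 libraries, against 624.7, 654.5 and 603.9 CPM in RFP libraries. It fell by 0.78 (SE 0.23, adjusted p = 0.030). RPL15, a large subunit protein that is mutated in some cases of Diamond-Blackfan anaemia, was at 560.5, 416.8 and 512.6 CPM in Kir2.1 libraries, against 686.0, 735.5 and 857.5 CPM in RFP libraries. It fell by 0.61 (SE 0.19, adjusted p = 0.038). The call of RPL12 was lost with any RFP library, Kir2.1 replicate 2 or Kir2.1 replicate 3 left out, and that of RPL15 with RFP replicate 2 or 3 or Kir2.1 replicate 2 or 3 left out. Both genes were apart from RFP in all 3 Kir2.1 libraries, and 33.4% and 19.3% of their coding stretches are unique. Among the 37 core genes with at least 50% unique stretches none was called, while their median change was -0.32, against -0.39 for the 24 genes with 10 to 50% and -0.44 for the 16 genes with under 10%.

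Some other members, named here after their values were seen or for their roles, did not pass the test. RPL26 was at 355.3, 225.1 and 305.5 CPM in Kir2.1 libraries, against 415.6, 591.9 and 653.7 CPM in RFP libraries, with a fitted change of -0.91 (SE 0.36, adjusted p = 0.099). RPS24, the gene of highest level per kilobase, averaged 937.9 ± 184 CPM in Kir2.1 libraries and 1543 ± 251 CPM in RFP libraries (SD, n = 3 each), with a fitted change of -0.72 and an adjusted p of 0.064. RPL5, which with RPL11 and 5S ribosomal RNA forms the particle that binds MDM2, averaged 824.9 ± 119 CPM in Kir2.1 libraries and 1248 ± 64.0 CPM in RFP libraries (SD, n = 3 each), a fitted change of -0.60 with an adjusted p of 0.078. Its partner RPL11 averaged 776.0 ± 301 CPM in Kir2.1 libraries and 812.7 ± 127 CPM in RFP libraries (SD, n = 3 each), at -0.07.

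The positive end, also named after its values were seen, held small values. RPS16 at 0.36, RPL28 at 0.29 and RPL18 at 0.27 were among the highest fitted changes, with adjusted p-values from 0.39 to 0.51. RPS19, the member most often mutated in Diamond-Blackfan anaemia, was also at 0.27 (adjusted p = 0.51), and RPL13A, which is known for a second role in silencing inflammatory mRNAs, was at 0.12. The stalk proteins RPLP0, RPLP1 and RPLP2 were at -0.11, -0.27 and -0.12. None of the 6 tested paralogs was called, and their fitted changes lay between -0.38 (RPL26L1) and 0.19 (RPL7L1). FAU and RACK1, which encode ribosomal proteins under other names, were at -0.13 and -0.38 and were not called.

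**Figure D4:**
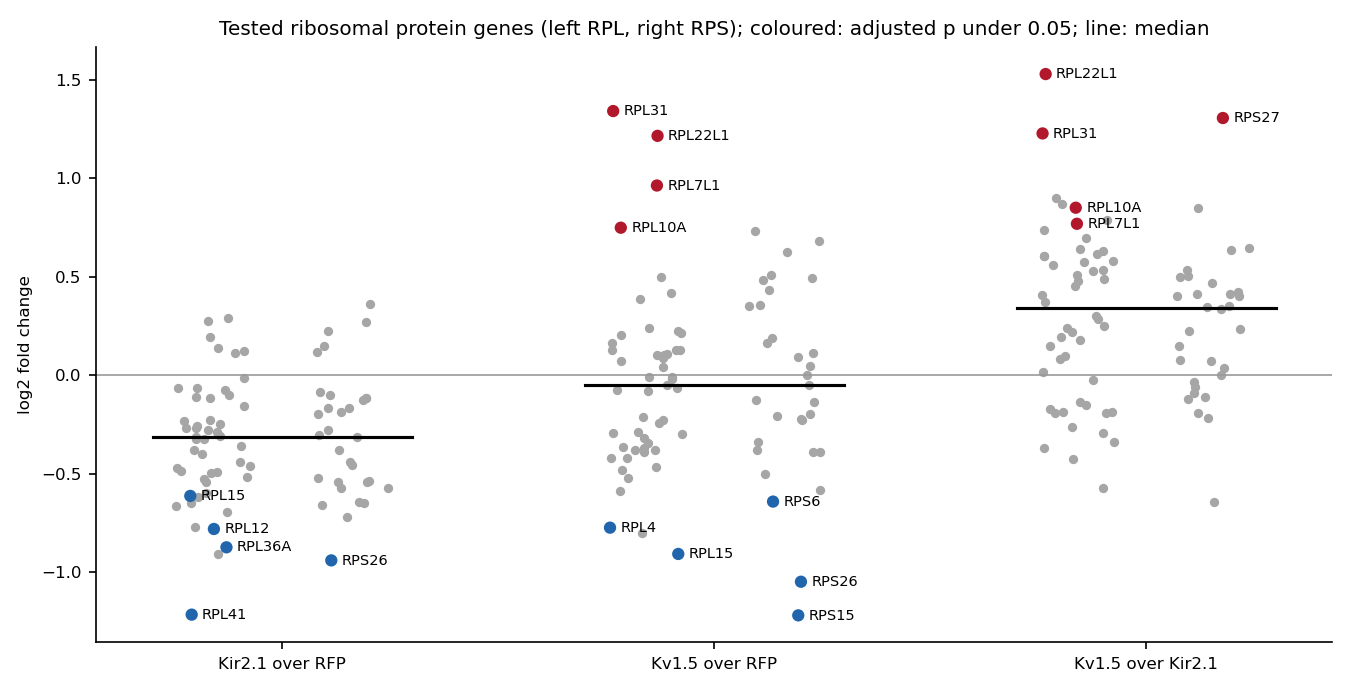
Each point is a tested member, with RPL genes on the left and RPS genes on the right of each comparison, the fitted log2 fold change on the vertical axis, called genes in red (higher) or blue (lower) and the median of all 84 tested members as a line. The medians are -0.31 for Kir2.1 over RFP, -0.05 for Kv1.5 over RFP and 0.34 for Kv1.5 over Kir2.1.

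In libraries labelled Kv1.5, 4 members were higher than in RFP libraries (RPL31, RPL22L1, RPL7L1 and RPL10A) and 5 were lower (RPS15, RPS26, RPL15, RPL4 and RPS6). The 9 make up 10.7% of the 84 members, against 33.7% of all genes tested. By direction, 4.76% of members were called higher, against 18.1% of all genes tested, and 5.95% lower, against 15.6%. The median change was -0.05, against 0.02 for all genes tested, and -0.41 without the library labelled Kv1.5 replicate 3. At an unadjusted p under 0.05 there were 16 members (19%), against 43.6% of all genes tested. The count of falls was 3 without RFP replicate 1 or RFP replicate 2. The share of all genes tested that was called in those fits is not given here. That count thus does not single out the members. Groups did not overlap for 24 members (28.6%), 9 higher and 15 lower, where 54.2% of all genes tested did not overlap, 27.9% higher and 26.4% lower.

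RPL31, a large subunit protein beside the tunnel through which new proteins leave, was at 652.7 and 1602 CPM in libraries labelled Kv1.5, against 374.4, 573.5 and 386.6 CPM in RFP libraries. It rose by 1.34 (SE 0.33, adjusted p = 0.0090) and is the 1 member among the 2178 genes of the authors' deposited table for Kv1.5 and RFP, at 1.34. RPL22L1, the paralog that can take the place of RPL22, was at 103.0 and 283.7 CPM in libraries labelled Kv1.5, against 74.2, 95.1 and 80.5 CPM in RFP libraries. It rose by 1.22 (SE 0.34, adjusted p = 0.016). Both genes were above every RFP library, with replicate 3 far above replicate 2.

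RPL7L1, a paralog of RPL7 found on nuclear precursors of the large subunit, was at 521.4 and 936.5 CPM in libraries labelled Kv1.5, against 401.5, 363.5 and 356.4 CPM in RFP libraries. It rose by 0.96 (SE 0.23, adjusted p = 0.0079). RPL10A, which forms the mobile stalk at the exit of transfer RNA, was at 639.0 and 762.4 CPM in libraries labelled Kv1.5, against 449.6, 450.5 and 350.5 CPM in RFP libraries. It rose by 0.75 (SE 0.22, adjusted p = 0.020), and its replicates lay closer together than those of the other genes that rose.

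These 4 calls were lost without the library labelled Kv1.5 replicate 3, in a fit that leaves replicate 2 alone in that group. RPL31 was then at 0.55, RPL22L1 at 0.31, RPL7L1 at 0.48 and RPL10A at 0.62. The call of RPL10A was also lost without RFP replicate 3. In the library labelled Kv1.5 replicate 3, 62 of the 77 core genes were above their own mean, and MKI67, a marker of cycling cells, was at 67.7 CPM, against 318.8 CPM in the library labelled Kv1.5 replicate 2 and 863 to 1108 CPM in RFP libraries. The part of either in the calls was not tested.

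RPS15, a small subunit protein near the site where codons are read, was at 139.9 and 133.4 CPM in libraries labelled Kv1.5, against 398.6, 331.2 and 225.2 CPM in RFP libraries. It fell by 1.22 (SE 0.29, adjusted p = 0.0074). RPL15 was at 364.5 and 445.3 CPM in libraries labelled Kv1.5, against the RFP values above, and fell by 0.91 (SE 0.22, adjusted p = 0.0072). RPS26 was at 6.91 and 8.72 CPM in libraries labelled Kv1.5 and fell by 1.05 (SE 0.27, adjusted p = 0.0098). Without the library labelled Kv1.5 replicate 2, RPS26 was at -0.89 with an adjusted p of 0.0504. RPL15 and RPS26 were thus lower than RFP in Kir2.1 libraries and in libraries labelled Kv1.5, in comparisons that share the RFP libraries.

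RPL4, whose loop lines the exit tunnel, was at 408.8 and 445.3 CPM in libraries labelled Kv1.5, against 849.3, 772.0 and 570.0 CPM in RFP libraries. It fell by 0.77 (SE 0.23, adjusted p = 0.023). RPS6, the substrate of the S6 kinases below mTORC1, was at 752.5 and 889.4 CPM in libraries labelled Kv1.5, against 1348, 1264 and 1231 CPM in RFP libraries. It fell by 0.64 (SE 0.23, adjusted p = 0.046). The call of RPS6 was lost under 11 of 21 alternatives, among them any RFP library, either library labelled Kv1.5 or Kir2.1 replicate 2 or 3 left out, and that of RPL4 with RFP replicate 1 or 2 or either library labelled Kv1.5 left out. In Kir2.1 libraries RPS6 was at 1130, 754.0 and 793.0 CPM, all under the lowest RFP library, with a fitted change of -0.52 that was not called (adjusted p = 0.085).

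Among members not called against RFP, and named after their values were seen, RPS27 was at 0.73 and RPL36 at -0.80, with adjusted p-values of 0.0649 and 0.0503. The stalk proteins RPLP0, RPLP1 and RPLP2 were at 0.13, -0.42 and -0.29, RPL5 and RPL11 were at 0.04 and 0.13, and RPS19 and RPL13A were at 0.49 and 0.50. Among the other paralogs, RPL36AL was at -0.59 (adjusted p = 0.091), RPL39L at -0.29, RPS27L, a p53 target, at -0.21 and RPL26L1 at 0.20. FAU and RACK1 were at -0.06 and -0.42 and were not called.

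Set against Kir2.1 libraries, the libraries labelled Kv1.5 had 5 members called higher and 0 called lower. The 5, RPL22L1, RPS27, RPL31, RPL10A and RPL7L1, are 5.95% of the members, against 8.79% of all genes tested that were called higher, 7.99% called lower and 16.8% called in either direction. Groups did not overlap for 16 members (19%), 12 higher and 4 lower, where 47.7% of all genes tested did not overlap, 23.3% higher and 24.4% lower. The median change was 0.34, against 0.01 for all genes tested, and 60 of 84 members were above 0 (71.4%, against 50.4% of all genes tested). At an unadjusted p under 0.05 there were 20 members (23.8%), against 32% of all genes tested, and limma voom and DESeq2, like edgeR, called none lower. Both other comparisons share libraries with this one.

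RPL22L1 was at 103.0 and 283.7 CPM in libraries labelled Kv1.5, against 78.0, 51.2 and 71.7 CPM in Kir2.1 libraries, and rose by 1.53 (SE 0.34, adjusted p = 0.011). RPS27, a small subunit protein with a zinc finger, was at 8.42 and 13.5 CPM in libraries labelled Kv1.5, against 5.04, 3.51 and 4.72 CPM in Kir2.1 libraries, and rose by 1.31 (SE 0.29, adjusted p = 0.010). Its level is low, and none of its coding stretches is unique. RPL31 rose by 1.23 (SE 0.33, adjusted p = 0.027) over 554.5, 377.5 and 511.9 CPM in Kir2.1 libraries. RPL10A rose by 0.85 (SE 0.22, adjusted p = 0.021) over 473.9, 327.3 and 364.5 CPM in Kir2.1 libraries, and RPL7L1 by 0.77 (SE 0.23, adjusted p = 0.042) over 429.7, 421.1 and 432.3 CPM. Each gene was above every Kir2.1 library in both libraries labelled Kv1.5.

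Here too the 5 calls were lost without the library labelled Kv1.5 replicate 3, in a fit that leaves replicate 2 alone in that group. The median change was then -0.055. Without replicate 2 in its place, the median was 0.57. Without Kir2.1 replicate 1, 2 or 3 in turn, 3, 1 and 2 were called higher. The share of all genes tested that was called in those fits is not given here. The calls of RPL31 and RPL7L1 were lost with any Kir2.1 library left out, that of RPL10A with Kir2.1 replicate 2 or 3, and that of RPS27 with Kir2.1 replicate 2. Without RFP replicate 2 that of RPL7L1 was lost too. The largest remaining value without replicate 3 among the 5 genes was that of RPS27, at 0.93.

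The balance between a core protein and its paralog also varied, most of all for RPL22L1 over RPL22. The ratio of their CPM, not scaled for length, was 1.16, 0.978 and 1.51 in Kir2.1 libraries, 1.58 and 4.68 in libraries labelled Kv1.5, and 1.21, 1.90 and 1.25 in RFP libraries. RPL22 itself was between 47.6 and 67.1 CPM in all 8 libraries and was called in no comparison. For RPL39L, a paralog best known from testis, over RPL39, the ratio was 0.849, 0.876 and 0.707 in Kir2.1 libraries, 0.578 and 0.239 in libraries labelled Kv1.5, and 0.366, 0.406 and 0.406 in RFP libraries. Every Kir2.1 ratio was above every RFP ratio. RPL39L was at 42.2, 29.8 and 42.9 CPM in Kir2.1 libraries and at 21.1, 42.5 and 40.9 CPM in RFP libraries, which overlap, while RPL39 was at 49.7, 34.0 and 60.6 CPM in Kir2.1 libraries and at 57.8, 104.6 and 100.8 CPM in RFP libraries. Kir2.1 ratios were also all above RFP ratios for RPL7L1 over RPL7 (182, 219 and 191 against 109, 81.4 and 118). So were those for RPS27L over RPS27 (14.8, 15.8 and 14.7 against 8.16, 10.7 and 14.5). In libraries labelled Kv1.5 the ratio was 186 and 258 for RPL7L1 over RPL7, above every RFP ratio. There it was 6.74 and 5.03 for RPS27L over RPS27, below every RFP ratio. The ratios of RPL22L1, RPL26L1 and RPL36AL to their partners overlapped between Kir2.1 and RFP libraries. Of single genes tested, 44.7% did not overlap between Kir2.1 and RFP libraries. No test was made of these ratios, RPL39 and RPS27 have no unique coding stretch, and in RPL7 0.29% are unique.

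Other genes that work with the ribosomal proteins were counted by list in the same fit. Among all genes tested, 12.2% were called higher and 8.26% lower in Kir2.1 libraries than in RFP libraries, and 18.1% higher and 15.6% lower in libraries labelled Kv1.5. Of 16 tested translation factors and other RNAs with a TOP tract, 1 rose (6.25%) and 5 fell (31.2%) in Kir2.1 libraries against RFP libraries, and 1 rose (6.25%) and 4 fell (25%) in libraries labelled Kv1.5. Whether a list's share differs from that of all genes was not tested for any list. For fits with a library left out, the share of all genes called is not given here. Counts from those fits thus do not single out a list. EEF2, the factor that moves the ribosome along mRNA, was at 1390, 1346 and 1332 CPM in Kir2.1 libraries, at 796.5 and 810.1 CPM in libraries labelled Kv1.5, and at 3062, 2605 and 1772 CPM in RFP libraries. It fell by 0.87 in Kir2.1 libraries (adjusted p = 0.013) and by 1.63 in libraries labelled Kv1.5 (adjusted p = 0.00049). With each library left out in turn, between 1 and 5 of the list fell in Kir2.1 libraries. EIF4B, which helps the cap-binding helicase, fell in both (-0.78 and -1.04), and EIF2S3, a subunit of the initiator transfer RNA carrier, rose in both (0.83 and 1.23).

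Of 13 RNAs that host small nucleolar RNAs, 6 fell (46.2%) and 0 rose in Kir2.1 libraries against RFP libraries, with a median of -0.69, and 7 rose (53.8%) and 2 fell (15.4%) in libraries labelled Kv1.5, with a median of 0.93. GAS5, a noncoding host RNA that also begins with a TOP tract, was at 159.0, 126.6 and 137.4 CPM in Kir2.1 libraries, at 445.7 and 1018 CPM in libraries labelled Kv1.5, and at 487.5, 375.9 and 280.5 CPM in RFP libraries. It fell by 1.44 in Kir2.1 libraries (adjusted p = 0.0045) and rose by 0.94 in libraries labelled Kv1.5 (adjusted p = 0.037). Without the library labelled Kv1.5 replicate 3, 4 hosts rose and 2 fell against RFP, and the median was 0.29. The falls in Kir2.1 libraries numbered between 1 and 7 with each library left out in turn.

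Of 51 ribosome biogenesis factors, 0 rose and 5 fell (9.8%, near the 8.26% of all genes tested) in Kir2.1 libraries against RFP libraries, among them NMD3, the export adaptor of the large subunit, at -0.83 and NOLC1, a nucleolar phosphoprotein, at -0.72. That count lay between 0 and 11 with each library left out in turn. In libraries labelled Kv1.5, 9 rose (17.6%, near the 18.1% of all genes tested) and 0 fell against RFP, led by DDX10, a nucleolar helicase, at 2.07, and 5 rose and 1 fell without replicate 3. Against Kir2.1 libraries 14 rose (27.5%, against 8.79% of all genes tested) and 0 fell, and 4 rose without replicate 3. Of 14 genes of RNA polymerase I, which transcribes ribosomal RNA, 5 rose (35.7%) and 1 fell (7.14%) against RFP in libraries labelled Kv1.5, with 1 each without replicate 3, and 0 rose and 1 fell in Kir2.1 libraries. MYC, a transcription factor known to drive ribosome production, was at 175.8, 202.7 and 228.7 CPM in Kir2.1 libraries, at 652.1 and 1197 CPM in libraries labelled Kv1.5, and at 260.3, 245.3 and 173.3 CPM in RFP libraries. It rose by 2.03 in libraries labelled Kv1.5 against RFP (adjusted p = 0.00018) and was at -0.16 in Kir2.1 libraries (adjusted p = 0.68). Of the 21 genes of the MYC and mTORC1 list, 8 rose (38.1%) and 1 fell (4.76%) in libraries labelled Kv1.5 and 3 rose (14.3%) and 0 fell in Kir2.1 libraries. Of the 5 dedicated ribosomal protein chaperones 0 were called in any comparison with all 8 libraries. With single libraries left out, at most 1 rose and 1 fell in Kir2.1 libraries against RFP, and at most 1 rose and 2 fell in libraries labelled Kv1.5.

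The mitochondrial ribosome, built from a separate set of nuclear genes, had shares of calls below those of all genes tested. Of 77 tested genes, 2 rose (2.6%) and 5 fell (6.49%) in Kir2.1 libraries against RFP libraries, with a median of -0.10. In libraries labelled Kv1.5, 11 rose (14.3%) and 6 fell (7.79%), with a median of -0.02. MRPS11 was at 57.2, 42.0 and 39.5 CPM in Kir2.1 libraries, at 38.6 and 34.4 CPM in libraries labelled Kv1.5, and at 117.9, 107.7 and 91.5 CPM in RFP libraries. It fell in both, by 1.19 in Kir2.1 libraries and by 1.54 in libraries labelled Kv1.5. MRPL14 rose in both, by 0.76 and 0.89. With each library left out in turn, 0 to 4 rose and 1 to 7 fell in Kir2.1 libraries, and 5 to 11 rose and 1 to 7 fell in libraries labelled Kv1.5. The share of all genes called in those fits is not given here. No difference between the cytosolic and the mitochondrial set was tested.

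**Figure D5:**
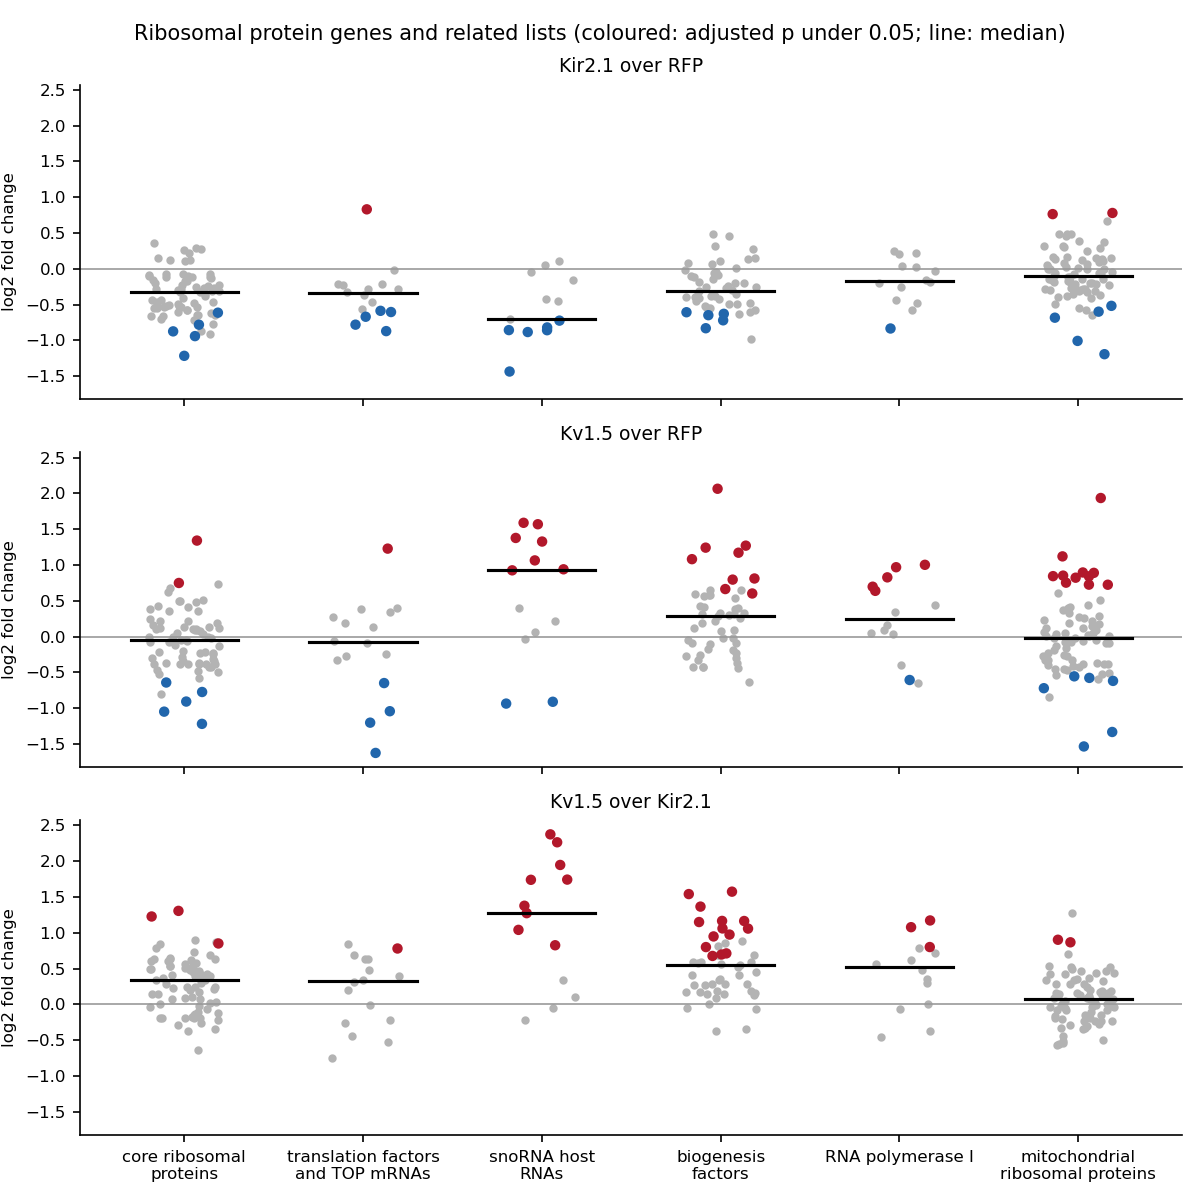
Fitted log2 fold changes (vertical axis) of the core ribosomal protein genes and of 5 related lists, 1 panel per comparison, with called genes in red (higher) or blue (lower) and the median of each list as a line. The snoRNA host RNAs have medians of -0.69 for Kir2.1 over RFP and 0.93 for Kv1.5 over RFP, and the core ribosomal protein genes -0.33 and -0.05.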

How the data were processed

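Raw counts per gene for 8 libraries were deposited by the authors as 1 table. Per the labels, TruSeq stranded mRNA libraries were read as single-end 50-base reads, and per the submitters' processing notes FastQC, Trimmomatic, STAR, edgeR and the GRCh38 build were used. How reads were counted, with what strand setting and on which annotation is not given in these sources, and a gene's reads cannot be told apart from antisense ones. The authors' deposited tables also hold log2 fold changes, p-values and a ranking score for selected genes; the log2 values alone are quoted.

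Tests on the counts used edgeR 4.0.16 (R 4.3.3), with its filterByExpr filter, TMM scaling and the robust quasi-likelihood test in 1 fit of all 8 libraries with group as the term (5 residual degrees of freedom), with Benjamini-Hochberg adjustment over 16687 genes. Standard errors were derived from the F statistic. Coding lengths and unique 50-base stretches came from GENCODE 29, and start windows from RefSeq. The procedure was tested on simulated data. Some genes that enter the counts and medians are not reported here. Named members were the 6 called genes of largest change in each direction with at least 5 CPM, paralogs with their partners, RPLP0, RPLP1, RPLP2, RPL5, RPL11, RPS6, RPS19, RPL13A and the 5 highest and 5 lowest by level, and, from each other list, the called genes of largest change. The members, lists and tests were chosen with earlier results of these data known. Library totals of 30970235 to 42753422 make counting error small beside the spread between libraries. Alternatives were other scalings and filters, DESeq2 1.42.0, limma 3.58.1 voom, fits of 2 groups, a replicate block, a fold threshold of 1.2, each library left out, a loess trend on coding length and members with at least 50% unique stretches, the last 2 chosen after seeing the data.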

Additional observations from a re-analysis of the deposited data

How the results depend on the processing

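The count of members called lower in Kir2.1 than in RFP libraries, 6, was 18 with no filter on low counts, 14 with DESeq2, 17 with those 2 groups alone, 16 with a trend on coding length taken off, 3 against a fold of 1.2, 0 among core genes with at least 50% unique stretches and 2 at an adjusted p under 0.01. It lay between 2 and 17 with each library left out in turn, and the median between -0.54 and -0.20. In libraries labelled Kv1.5 against RFP, 4 members called higher became 7 with DESeq2, 2 among those core genes (3 with the paralog RPL22L1) and 2 at 0.01, and 0 to 8 with each library left out. The 5 called lower became 11 with the length trend taken off, 1 among those core genes and 3 at 0.01, and 2 to 7 with each library left out, while the median changed sign, lying between -0.41 and 0.19. Against Kir2.1, 5 called higher became 11 with no filter, 2 among those core genes (3 with RPL22L1) and 0 at 0.01, and 0 to 27 with each library left out. The 0 called lower became 1 with the length trend, and the median, 0.34, lay between -0.055 without the library labelled Kv1.5 replicate 3 and 0.57. The share of all genes tested that was called under each alternative is not given here, so these counts do not single out the members. Fits without a library labelled Kv1.5 leave the other alone in that group. The causes were not tested. The labels state no pairing by replicate number. Deviations from group means in RFP and Kir2.1 libraries of the same number correlated at 0.181, -0.0938 and 0.157. Those of different number correlated between -0.218 and 0.0850. Libraries labelled Kv1.5 correlated with those of the same number at 0.0326 and -0.112 (RFP) and at -0.0123 and 0.0962 (Kir2.1). These values do not settle whether the numbers pair the samples. With the replicate block, 12 members were called lower in Kir2.1 than in RFP libraries and 8 higher in libraries labelled Kv1.5 than in RFP libraries. Under all 21 alternatives run for single genes, the calls of RPL41 in Kir2.1 libraries and of RPS15 and RPL15 in libraries labelled Kv1.5, each against RFP, held, with adjusted p-values up to 0.0369, 0.0398 and 0.0445. The call of RPS6 against RFP and that of RPL7L1 against Kir2.1 were each lost under 11 of the 21 (the threshold of 0.01 and the fold of 1.2 included), those of RPL12 and RPL36A under 7, those of RPL15 in Kir2.1 libraries and of RPL31 against Kir2.1 under 6, and that of RPL4 under 5.

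The fold changes of called members kept their sign under every alternative run for them. Named members that were not called changed sign in 65 cases, and none of these was called under the alternative. With each library left out in turn, their ranges of log2 fold change for Kir2.1 against RFP were RPL11 (-0.41 to 0.16), RPL13A (-0.0262 to 0.21), RPL17 (-0.29 to 0.087), RPL22 (-0.23 to 0.0326), RPL36AL (-0.25 to 0.11), RPL39L (-0.13 to 0.30), RPLP0 (-0.26 to 0.00637) and RPLP2 (-0.52 to 0.21). For libraries labelled Kv1.5 against RFP they were RPL21 (-0.32 to 0.25), RPL22 (-0.00387 to 0.17), RPL26 (-1.09 to 0.61), RPL26L1 (-0.14 to 0.48), RPL30 (-0.58 to 0.30), RPL37 (-0.48 to 0.61), RPL37A (-0.16 to 0.37), RPL39 (-0.79 to 0.41), RPL5 (-0.42 to 0.39), RPLP0 (-0.24 to 0.43), RPLP2 (-0.53 to 0.0356), RPS10 (-0.13 to 1.21), RPS21 (-0.39 to 0.46) and RPS24 (-0.74 to 0.16). For libraries labelled Kv1.5 against Kir2.1 they were RPL11 (-0.0323 to 0.54), RPL21 (-0.094 to 0.47), RPL26 (-0.19 to 1.51), RPL30 (-0.094 to 0.78), RPL37 (-0.038 to 1.05), RPLP0 (-0.13 to 0.53), RPLP1 (-0.37 to 0.22), RPLP2 (-0.38 to 0.23), RPS19 (-0.0214 to 0.48), RPS21 (-0.0792 to 0.77), RPS24 (-0.0216 to 0.88), RPS27L (-0.23 to 0.0301) and RPS6 (-0.25 to 0.0852). The other changes of sign for Kv1.5 against RFP were, with the length trend taken off, RPL22 at -0.027, RPL37 at -0.0155, RPL37A at -0.0477, RPL5 at -0.027 and RPS21 at -0.094. RPL5 was at -0.0391 there with no scaling factor and at -0.0121 with limma voom. With the replicate block, RPL21 at 0.15 and RPLP2 at 0.087 for Kv1.5 against RFP, and RPLP1 at 0.19, RPLP2 at 0.22 and RPS6 at 0.00884 for Kv1.5 against Kir2.1, changed sign.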
